A study of Rattus norvegicus with 4 samples.

Results

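Transcripts of 9 genes of glycogen synthesis and breakdown were followed in rat skeletal muscle, out of 26624 genes or unnamed accessions on the array. The genes were Pygm, Phka1, Phkg1, Gys1, Gyg1, Gbe1, Ugp2, Ppp1r3a and Ppp1r3c, listed by name for their part in glycogen metabolism, with earlier results of these data known, and found through the RefSeq accessions of their probes. The muscles were those of male rats at 15 weeks of age: 1 one-colour array was of an exercised SPORTS rat, 1 of a sedentary SPORTS rat and 2 of WT muscle. SPORTS is a hyperactive mutant rat on a Wistar background, and the WT rats were Wistar and, by the study's design, sedentary. The labels name neither the muscle sampled nor the mutation nor the kind and length of the exercise. Whether the 2 WT arrays are of separate animals is also not given, and their titles share a first number, so p-values here reflect only how far these samples lie apart, which may be technical spread.

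Skeletal muscle stores glucose as glycogen, a branched polymer that grows on the protein glycogenin. Uridine diphosphate glucose is the building block, glycogen synthase lengthens the chains and the branching enzyme adds branch points. During contraction, phosphorylase kinase, which is switched on by calcium, phosphorylates glycogen phosphorylase, and the phosphorylase frees glucose 1-phosphate for glycolysis. Protein phosphatase 1, held on the glycogen particle by targeting subunits, works the other way: it dephosphorylates the synthase, which activates it, and the phosphorylase, which inactivates it. Fast, glycolytic fibres are known for high phosphorylase activity.

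Levels are log2 of the processed array signal minus the 75th percentile of the same array, so a level can be compared between arrays for a gene but not between genes. All 9 genes were well above background on all 4 arrays by the scanner software's flag, and all 9 entered the test, together with 13326 genes in all that were well above background on at least 2 arrays. The members were represented by 11 probes, with 1 spot each. The WT arrays lay within 0.14 of each other for 8 of the 9 genes, and 0.59 apart for Ppp1r3c. Over the 4 arrays, the range of a gene's levels went from 0.39 for Gys1 to 3.14 for Phka1.

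Of the 4 arrays, that of exercised SPORTS muscle differed most. It lay at least 2-fold from WT arrays 1 and 2 for 21.0% and 20.6% of the genes tested, the sedentary SPORTS array for 5.15% and 6.55%, and the WT arrays from each other for 1.13%. Probes well above background made up 46.0% on the exercised array, 50.3% on the sedentary SPORTS array and 48.7% and 48.9% on the WT arrays. All 4 arrays came from 1 slide. The muscle markers Acta1, Ckm, Mb and Des, the 4 of 8 listed that had a named probe, were well above background on every array. Of the 4 liver markers, Alb, Apoa1 and Fgb were well above background on no array, and Ttr on the sedentary SPORTS array alone. Gys2, the liver glycogen synthase gene, was well above background on no array.

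**Figure D1:**
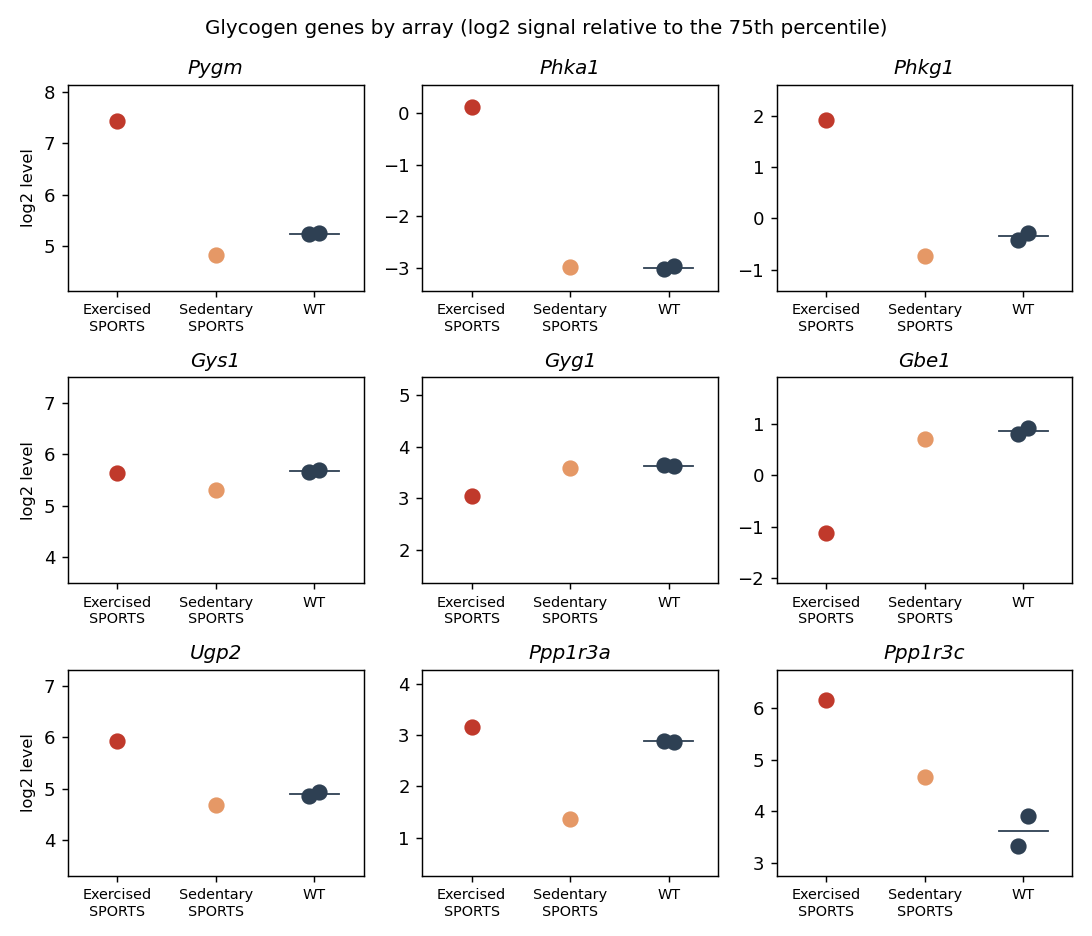
Level of each glycogen gene (log2 signal relative to the 75th percentile of the array) on the exercised SPORTS array, the sedentary SPORTS array and the 2 WT arrays, 1 point per array, with a line at the WT mean and the same span on every vertical axis. Pygm, Phka1, Phkg1, Ugp2 and Ppp1r3c were highest on the exercised array, Gbe1 was lowest there, and Ppp1r3a was lowest on the sedentary SPORTS array.

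Genes of glycogen breakdown were compared between each SPORTS array and WT. In exercised SPORTS against WT, genotype and exercise changed together and cannot be told apart, since no WT array was of an exercised rat. By the labels and the study's design, sedentary SPORTS muscle differed from WT in genotype. Pygm, which encodes muscle glycogen phosphorylase, had a level of 7.43 in exercised and 4.84 in sedentary SPORTS muscle, against 5.24 and 5.25 in WT muscle. The exercised array was thus far above the other 3, which lay close together, with the sedentary SPORTS array the lowest. On the exercised array Pygm rose 4.56-fold against WT, by 2.19 ± 0.06 on the log2 scale (adjusted p = 0.00426, limma, standard error of the fit). On the sedentary array it differed by -0.40 ± 0.06 and did not pass (adjusted p = 0.0633).

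Phosphorylase kinase, the enzyme that activates phosphorylase, has a catalytic gamma subunit and regulatory subunits, among them alpha and beta. Phka1, the gene of the muscle alpha subunit, had a level of 0.12 in exercised and -2.99 in sedentary SPORTS muscle, against -3.02 and -2.97 in WT muscle. It was the member with the widest range, and the sedentary SPORTS array lay between the WT arrays. Phka1 rose 8.69-fold on the exercised array (3.12 ± 0.07 log2, adjusted p = 0.00424) and differed by 0.01 ± 0.07 on the sedentary one (adjusted p = 0.939). The WT and sedentary SPORTS levels lay near the lowest that the flag passed on those arrays (-3.65, -3.60 and -3.79). With normexp background correction the exercised difference was 2.51. Phkg1, the gene of the muscle gamma subunit, had a level of 1.92 in exercised and -0.73 in sedentary SPORTS muscle, against -0.42 and -0.28 in WT muscle. Its order of arrays was that of Pygm. Phkg1 rose 4.82-fold on the exercised array (2.27 ± 0.10 log2, adjusted p = 0.00468), and on the sedentary array the difference was -0.37 ± 0.10 (adjusted p = 0.114).

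Pygm and Phkg1 were the closest pair of the 9 in profile. Their values, each centred on its own mean over the 4 arrays, differed by a root mean square of 0.06 on the log2 scale, and Phkg1 was the nearest to Pygm of 8476 other named genes tested. The next nearest were Atl2 at 0.067, Plcd4 at 0.082, Arhgap28 at 0.084 and Mamdc4 at 0.087. This likeness is a description over 4 arrays and carries no test. The promoter windows of both genes are printed here to set that likeness beside the sequence. They run from 250 bases before to 50 bases after the start of the gene in RefSeq (GRCr8), at chr1:213119555-213119854, plus strand, and chr12:32474827-32475126, plus strand, 5′ to 3′ along the gene. Capitals mark the E-box CAGCTG, a site of myogenic helix-loop-helix factors, the E-box CACGTG, and matches to the MEF2 consensus, the site of a muscle transcription factor family, searched on both strands.
Pygm: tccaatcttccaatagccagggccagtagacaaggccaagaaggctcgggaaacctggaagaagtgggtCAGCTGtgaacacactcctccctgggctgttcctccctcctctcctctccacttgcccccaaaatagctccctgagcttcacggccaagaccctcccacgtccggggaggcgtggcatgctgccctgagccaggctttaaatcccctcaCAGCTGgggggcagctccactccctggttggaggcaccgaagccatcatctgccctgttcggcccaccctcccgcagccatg
Phkg1: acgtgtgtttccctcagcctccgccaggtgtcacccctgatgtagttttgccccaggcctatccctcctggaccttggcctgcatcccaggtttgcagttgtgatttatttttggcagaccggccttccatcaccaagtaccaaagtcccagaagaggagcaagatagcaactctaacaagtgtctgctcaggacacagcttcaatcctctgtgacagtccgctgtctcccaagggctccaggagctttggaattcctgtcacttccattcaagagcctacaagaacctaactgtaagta
The Pygm window held CAGCTG at 181 and at 32 bases before the start, and the Phkg1 window held none of the capitalised motifs. Of 33469 rat promoter windows, 15.1% held CAGCTG, as did 4 of the 9 members, namely Pygm, Gys1, Ppp1r3a and Ppp1r3c. A match is a run of letters and was not tested as a binding site. The windows of Pygm and Phkg1 also differed in base composition, with 61.7% and 51.7% G or C, against a median of 51.7% over all windows.

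The 4 genes of glycogen synthesis did not move together on the exercised array. Their differences from WT there were 1.03 for Ugp2, -0.03 for Gys1, -0.59 for Gyg1 and -1.97 for Gbe1. Gys1, which encodes muscle glycogen synthase, had a level of 5.64 in exercised and 5.30 in sedentary SPORTS muscle, against 5.66 and 5.69 in WT muscle. Both SPORTS arrays lay below both WT arrays, the exercised one only just. Neither difference passed, at -0.03 ± 0.06 on the exercised array (adjusted p = 0.722) and -0.38 ± 0.06 on the sedentary one (adjusted p = 0.0706). With arrays scaled by their median the exercised difference was 0.20, so its sign depends on the scaling. The second, dimmer probe of Gys1 gave -0.50 on the exercised and -0.45 on the sedentary array, which for the exercised array is not what the brighter probe gave. The genes nearest to Gys1 in profile were Ift172 at a root mean square of 0.0084, Nup35 at 0.012, Gnl2 at 0.015, and Cipc and Grwd1 at 0.016. Their differences on the sedentary array lay between -0.39 and -0.34, which follows from choosing them by likeness over the same arrays.

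Gyg1, the gene of glycogenin, the primer on which glycogen starts, had a level of 3.04 in exercised and 3.58 in sedentary SPORTS muscle, against 3.65 and 3.62 in WT muscle. It fell on the exercised array by 0.59 ± 0.06 (adjusted p = 0.0131), a 1.5-fold decrease, and differed by -0.05 ± 0.06 on the sedentary array (adjusted p = 0.627). Gbe1, which encodes the branching enzyme, had a level of -1.11 in exercised and 0.71 in sedentary SPORTS muscle, against 0.80 and 0.92 in WT muscle. Here the exercised array was far below the other 3. Gbe1 fell 3.92-fold on the exercised array, by 1.97 ± 0.09 (adjusted p = 0.00473), the only member that fell at least 2-fold there, and differed by -0.15 ± 0.09 on the sedentary one (adjusted p = 0.304). Its promoter window (chr11:22181026-22181325, plus strand) is shown as that of the gene that went against Pygm, and it held none of the capitalised motifs.
Gbe1: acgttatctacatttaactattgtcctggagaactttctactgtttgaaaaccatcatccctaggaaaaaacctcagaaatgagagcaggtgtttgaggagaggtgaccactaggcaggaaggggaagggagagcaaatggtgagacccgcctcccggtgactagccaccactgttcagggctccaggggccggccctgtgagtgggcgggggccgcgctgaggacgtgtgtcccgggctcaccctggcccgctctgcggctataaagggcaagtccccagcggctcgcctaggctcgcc
The window held a TATAAA run 11 bases after the start, which 14.2% of all windows also hold on either strand at some place.

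Ugp2, which encodes the pyrophosphorylase that makes uridine diphosphate glucose, was higher on the exercised array, as the breakdown genes were. Its level was 5.93 in exercised and 4.68 in sedentary SPORTS muscle, against 4.86 and 4.94 in WT muscle. The exercised array was highest and the sedentary SPORTS array lowest. Ugp2 rose 2.04-fold on the exercised array (1.03 ± 0.07 log2, adjusted p = 0.00723) and differed by -0.22 ± 0.07 on the sedentary one (adjusted p = 0.155).

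The genes of the targeting subunits of protein phosphatase 1 differed from each other in how they stood against WT. Both were higher on the exercised than on the sedentary SPORTS array. Ppp1r3a, whose product is the large glycogen-targeting subunit of striated muscle, had a level of 3.16 in exercised and 1.37 in sedentary SPORTS muscle, against 2.89 and 2.87 in WT muscle. The sedentary SPORTS array was far below the other 3. Ppp1r3a fell there 2.85-fold, by 1.51 ± 0.06 (adjusted p = 0.0322), and it was the only member called on that array. With no filter on dim genes the adjusted p was 0.0755, and with the mean of both its probes 0.0505, within a range of 0.00407 to 0.0755 over the alternatives. On the exercised array Ppp1r3a rose by 0.28 ± 0.06 (adjusted p = 0.0463), a call lost with quantile normalization (adjusted p = 0.215), with normexp background correction (0.0721) and with no filter on dim genes (0.130), within a range of 0.0144 to 0.215. The second probe of the gene was well above background on the exercised array alone, at -2.51. Against WT it gave 1.23 on the exercised and -0.59 on the sedentary array, unlike the 0.28 and -1.51 of the brighter probe. Between the SPORTS arrays it gave 1.82, beside 1.79 for the brighter probe, but its sedentary value was not well above background.

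Ppp1r3c, which encodes the targeting subunit known as protein targeting to glycogen, had a level of 6.17 in exercised and 4.66 in sedentary SPORTS muscle, against 3.32 and 3.91 in WT muscle. Both SPORTS arrays were above both WT arrays, and it was the only member for which that held. Ppp1r3c rose 5.88-fold on the exercised array (2.55 ± 0.31 log2, adjusted p = 0.0156). On the sedentary array the difference was 1.04 ± 0.31, a 2.06-fold level that did not pass (adjusted p = 0.135), beside a gap of 0.59 between the WT arrays. The promoter windows of Ppp1r3a (chr4:43946187-43946486, minus strand) and Ppp1r3c (chr1:243878478-243878777, minus strand) are shown since the pair differed most on the sedentary array.
Ppp1r3a: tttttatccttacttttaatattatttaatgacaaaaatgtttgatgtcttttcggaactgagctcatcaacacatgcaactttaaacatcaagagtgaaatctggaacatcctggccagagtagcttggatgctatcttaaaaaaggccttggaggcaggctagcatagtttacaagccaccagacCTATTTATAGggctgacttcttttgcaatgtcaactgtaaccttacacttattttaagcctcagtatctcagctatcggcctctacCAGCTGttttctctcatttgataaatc
Ppp1r3c: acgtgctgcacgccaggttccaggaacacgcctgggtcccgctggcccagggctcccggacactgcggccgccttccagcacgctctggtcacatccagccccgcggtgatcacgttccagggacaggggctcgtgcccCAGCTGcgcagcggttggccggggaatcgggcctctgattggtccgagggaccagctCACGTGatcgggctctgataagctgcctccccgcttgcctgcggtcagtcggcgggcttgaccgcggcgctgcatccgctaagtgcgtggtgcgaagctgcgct
The Ppp1r3a window, with 37.7% G or C, held a MEF2 match starting 63 bases before the start, which overlapped a TATAAA run on the other strand, and CAGCTG 23 bases after the start. A MEF2 match was found in 3.29% of all windows and in no other member. The Ppp1r3c window, with 69.0% G or C, held CAGCTG at 111 and CACGTG at 54 bases before the start. CACGTG was found in 6.42% of all windows and in 1 other member, Gyg1.

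**Figure D2:**
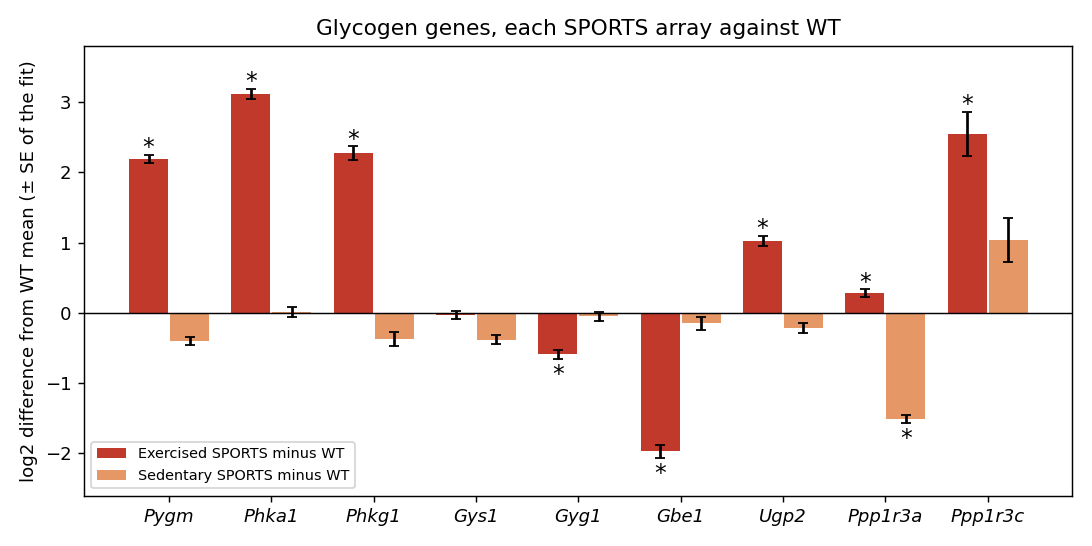
Log2 difference of each SPORTS array from the mean of the 2 WT arrays for the 9 glycogen genes, with exercised SPORTS left of sedentary SPORTS, error bars giving the standard error of the 3-group fit and a star for an adjusted p below 0.05. The exercised bars run from -1.97 for Gbe1 to 3.12 for Phka1, and the sedentary bars from -1.51 for Ppp1r3a to 1.04 for Ppp1r3c.

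Counted over the 9 genes, 6 rose and 2 fell on the exercised SPORTS array against WT. Over all genes tested the same fit called 53.3%, of which 27.3% were higher and 26.0% lower, so a call by itself was common on that array. At least 2-fold differences were rarer: 5 members were at least 2-fold higher and 1 lower, beside 8.61% and 12.0% of all genes tested. The median difference was 1.03 over the members and 0.00 over all genes tested. On the sedentary SPORTS array none rose and 1 fell, beside 2.82% and 3.45% of all genes, or 6.27% together. At least 2-fold differences from WT there numbered 1 higher (Ppp1r3c) and 1 lower (Ppp1r3a), beside 2.72% and 2.90% of all genes tested. The median was -0.22 over the members and -0.01 over all genes. Each fold is that of a single SPORTS array against the WT pair. Its standard error rests on the spread of that pair, with 1 residual degree of freedom, moderated by limma towards the spread over all genes tested. The variation among SPORTS rats is left unmeasured. The comparisons share the WT arrays.

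The balance of these calls depends on the scaling. Over all genes tested, 3634 were called higher and 3463 lower on the exercised array, whereas scaling by the median gave 5571 and 2505 and moved the median of all genes by 0.228. Differences between members within an array are free of this choice. Relative to the WT mean, Pygm moved against Gys1 by 2.22 in exercised and -0.03 in sedentary SPORTS muscle, and the WT arrays lay within 0.01 of their mean. Pygm moved against Gbe1 by 4.16 in exercised and -0.25 in sedentary SPORTS muscle, beside 0.06 for the WT arrays. The product of Ugp2 feeds the chains that the branching enzyme works on, and Ugp2 moved against Gbe1 by 3.0 in exercised and -0.07 in sedentary SPORTS muscle. Ppp1r3c moved against Ppp1r3a by 2.27 in exercised and 2.55 in sedentary SPORTS muscle, beside 0.30 for the WT arrays, so this pair differed by a similar amount on both.

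Exercised and sedentary SPORTS muscle were then set side by side, which by the labels differ in exercise within the genotype. With 1 array per condition the differences have no replicate check and no test. Of the 9 genes, 6 were at least 2-fold higher on the exercised array and 1 at least 2-fold lower, beside 9.11% and 12.8% of all genes tested. Those counts over all genes were 1214 higher and 1706 lower, whereas scaling by the median gave 1663 and 1354. Phka1 differed by 3.11 on the log2 scale, Phkg1 by 2.64 and Pygm by 2.59. Ppp1r3a differed by 1.79, Ppp1r3c by 1.51 and Ugp2 by 1.25, while Gbe1 differed by -1.82. Gyg1 and Gys1, the primer and the synthase, were less than 2-fold apart, at -0.54 and 0.35. For comparison, no member was 2-fold apart between the WT arrays.

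Taking both SPORTS arrays against both WT arrays, limma called none of the 9 genes, and 0 of all genes tested (0%). At an unadjusted p under 0.05 there were 0 members and 982 genes in all, or 7.37%. The members' adjusted p ranged from 0.688 for Ppp1r3c to 0.807 for Ugp2. Ppp1r3c averaged 5.41 ± 1.07 on the SPORTS arrays and 3.62 ± 0.41 on the WT arrays (SD, n = 2 each), a difference of 1.80 ± 0.63. For 5 of the 9 genes the WT levels lay between or among the SPORTS levels. Both SPORTS arrays were above both WT arrays for 1 member and below for 3 (Gys1, Gyg1 and Gbe1), where 21.4% and 22.3% of all genes tested did the same.

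Other genes of glycogen metabolism were taken from a list of 31, of which 27 had a named probe and 23 were tested. On the exercised SPORTS array 11 rose and 4 fell against WT, with a median of 0.38 over the 23. Over all genes tested, 27.3% were called higher and 26.0% lower there. Pgm1, the gene of the phosphoglucomutase that links glucose 1-phosphate to glycolysis, had a level of 5.34 in exercised and 2.74 in sedentary SPORTS muscle, against 2.87 and 2.84 in WT muscle. It rose on the exercised array by 2.49 ± 0.06 (adjusted p = 0.00424). Stbd1, which encodes a glycogen-binding protein, rose by 1.62 ± 0.07, and Hk2, the gene of muscle hexokinase, by 0.84 ± 0.07.

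The largest rise of the list was that of Prkag3, the gene of the muscle gamma subunit of AMP-activated protein kinase. Its level was 3.09 in exercised and -1.42 in sedentary SPORTS muscle, against -0.83 and -0.74 in WT muscle, a rise of 3.87 ± 0.08 on the exercised array, and its second probe gave 3.67. Prkab2, which encodes a glycogen-binding beta subunit of that kinase, rose on the exercised array by 0.82 ± 0.06 and fell on the sedentary one by 1.38 ± 0.06 (adjusted p = 0.0327). Ppp1r3a and Prkab2 thus both fell on the sedentary SPORTS array. The only other listed gene called there was Hk2, which rose by 0.77 ± 0.07 (adjusted p = 0.0458). The list's median on that array was 0.11, and 2.82% and 3.45% of all genes tested were called higher and lower there.

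Phkg2 and Pygb, paralogs of Phkg1 and Pygm, fell on the exercised array, beside the share of all genes called lower there that is given above. On the sedentary array Phkg2 also lay below WT, at -0.43, and did not pass. Phkg2, the gamma subunit gene known from liver and testis, fell on the exercised array by 0.81 ± 0.07 (adjusted p = 0.00864), where Phkg1 rose, and within the array Phkg1 moved against Phkg2 by 3.07. Pygb, the brain phosphorylase gene, was well above background on the other 3 arrays and not on the exercised one, where it was at least 1.78-fold lower than WT (adjusted p = 0.0124) and at least 2.11-fold lower than on the sedentary SPORTS array. Pygl, the liver phosphorylase gene, was well above background on the sedentary SPORTS array alone and was not tested. Calm2 and Calm3, genes of a calcium-binding subunit of phosphorylase kinase, rose on the exercised array by 1.30 ± 0.07 and 1.45 ± 0.07. Phkb, the beta subunit gene, was not well above background on the sedentary SPORTS array, was at least 3.84-fold higher on the exercised one than there, and did not pass against WT in either comparison (adjusted p = 0.0827 and 0.173).

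The other genes tested and reported from the list differed less than 2-fold from WT on both SPORTS arrays. Pgm2 fell on the exercised array by 0.50 ± 0.06 and Ppp1r3d, another targeting subunit gene, by 0.35 ± 0.07, while Nhlrc1 rose by 0.43 ± 0.09 and Gaa, the lysosomal glucosidase gene, by 0.38 ± 0.07. Gsk3a and Gsk3b, whose kinases phosphorylate glycogen synthase, differed by 0.16 and 0.11 there and did not pass. Ppp1r3b was not well above background on any array and Ppp1r3e was on WT array 2 alone, so neither was tested.

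**Figure D3:**
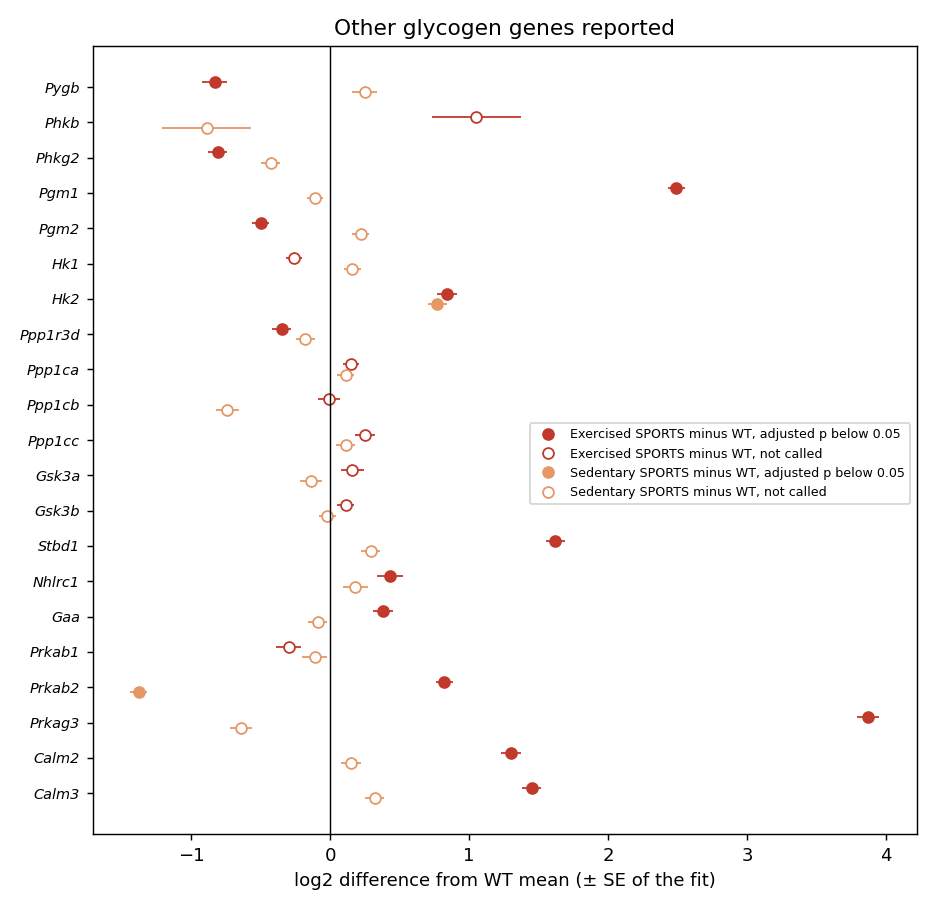
Log2 difference from the mean of the 2 WT arrays for the other glycogen genes tested and reported, with exercised SPORTS above sedentary SPORTS for each gene, lines giving the standard error of the fit and filled points an adjusted p below 0.05. Prkag3 and Pgm1 are farthest to the right on the exercised array, and Prkab2 is farthest to the left on the sedentary one.

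Fibre type markers also differed between the arrays. Of 9 fast fibre markers tested, 7 rose and 1 fell in exercised SPORTS muscle (median 1.22), and none rose and 5 fell in sedentary SPORTS muscle (median -3.30). Their summed level, with the 75th percentile of each array as 1, was 2970 in exercised and 282 in sedentary SPORTS muscle, against 1110 and 1120 in WT muscle. Of 10 slow fibre markers, none rose and 9 fell in exercised SPORTS muscle (median -2.45), and 1 rose in the sedentary (median -0.05). Their summed level was 444 in exercised and 1950 in sedentary SPORTS muscle, against 2090 and 2030 in WT muscle. All of these markers with a probe were well above background on every array. Over all genes tested, 27.3% were called higher and 26.0% lower in exercised SPORTS muscle, and 2.82% and 3.45% in sedentary SPORTS muscle. On the sedentary array the differences of the 9 fast markers from WT ran from -3.78 for Myh4 to 0.32 for Pvalb, with 5 lower and 4 not called. Those of the glycogen genes ran there from -1.51 to 1.04, with 1 lower and 8 not called. On the exercised array the differences of the fast markers ran from -0.43 to 7.52, with 7 higher, 1 lower and 1 not called. Those of the glycogen genes ran there from -1.97 to 3.12, with 6 higher, 2 lower and 1 not called. In bulk muscle, fewer cells of a type and less RNA per cell cannot be told apart, and the part of fibre content in the members' differences was not tested. With the muscle not named, a difference in the muscle sampled cannot be told apart from one in genotype or exercise either.

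**Figure D4:**
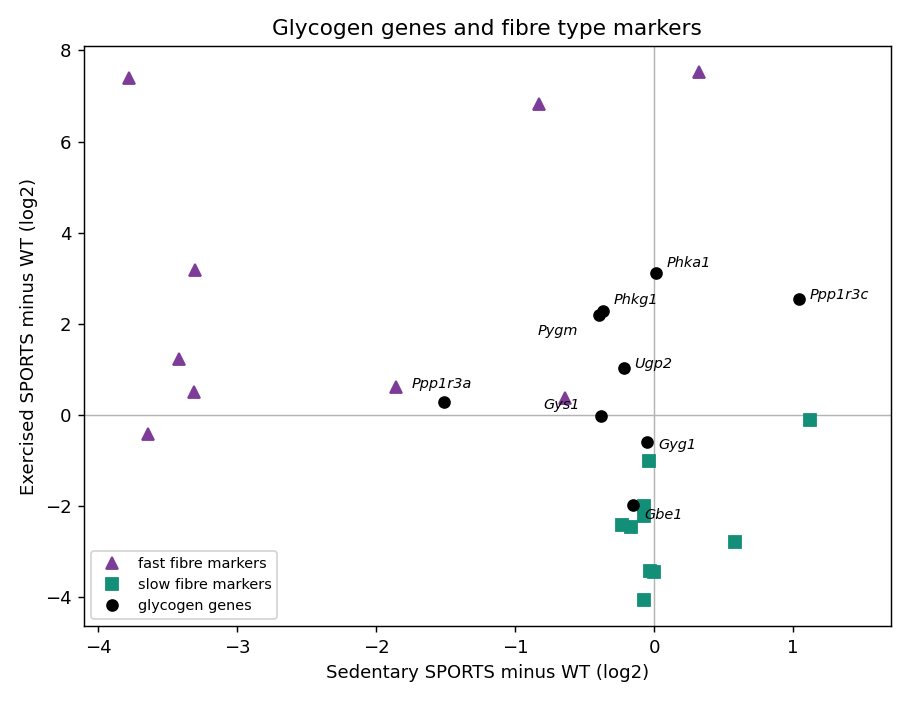
Log2 difference from WT on the sedentary SPORTS array (horizontal) and on the exercised SPORTS array (vertical), 1 point per gene, for the 9 glycogen genes, 9 fast fibre markers and 10 slow fibre markers. Both axes share the WT arrays. Slow markers lie below 0 on the vertical axis, as Gbe1, Gyg1 and, only just, Gys1 do. The sedentary values of most fast markers lie left of those of all 9 glycogen genes. On the vertical axis the fast markers reach 7.52 and the glycogen genes 3.12.

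Markers of other cells also differed, beside 26.0% of all genes tested called lower on the exercised array. The 7 fibroblast and tendon markers summed to 74.0 in exercised and 206 in sedentary SPORTS muscle, against 332 and 321 in WT muscle, and all 7 fell on the exercised one, where Tnmd and Chad were not well above background. The macrophage list summed to 0.634 in exercised and 4.05 in sedentary SPORTS muscle, against 2.36 and 1.59 in WT muscle, and the 4 of its 5 markers that were tested fell on the exercised array, where Adgre1, Csf1r and Mrc1 were not well above background. Adipocyte markers summed to 9.86 and 18.7 on the SPORTS arrays in the same order, against 20.9 and 26.0 on the WT arrays, with Lep not above background on any array. Their part in the values of the glycogen genes was not tested.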

How the data were processed

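Gene expression was measured in rat skeletal muscle on 4 one-colour arrays, 1 of exercised SPORTS, 1 of sedentary SPORTS and 2 of WT muscle, with groups from the source names. Per the labels' protocols, column-purified RNA was amplified and labelled with Cy3. The submitters' processing notes and the file headers name Agilent Feature Extraction 10.7.1.1. Per the file headers, the deposited intensity values have local background subtracted and spatial trends removed, array by array, and arrays were not scaled to each other. The authors' deposited value table holds log2 values centred per probe. Set against the scanner values, column differences gave r = 1 over 30015 probes (offset at most 0.00321), which fixes scale and direction. Column medians were 0.02 and -0.02 for WT, 0.17 for exercised and -0.15 for sedentary SPORTS.

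Control and outlier spots were left out and spots of a probe averaged, which dropped 352 of 30367 probes. The 75th percentile of an array was subtracted from its log2 processed signals. Accessions were matched without version to RefSeq genes of GRCr8, which named 59.4% of probes, and the brightest probe stood for a gene. No probe was saturated. Genes well above background on at least 2 arrays were fitted with limma 3.58.1 (R 4.3.3), as SPORTS against WT (2 residual degrees of freedom) and as 3 groups (1 residual degree of freedom), two-sided, Benjamini-Hochberg adjusted over all 13326 genes and called below 0.05. Scripts were tested on simulated data. Values after ± are standard errors from the fit, with limma's moderated variance, unless named SD. For a probe not well above background on one side, "at least N-fold" sets the brighter mean against the dim value or, if higher, the lowest signal that the flag passed on that array. Promoter windows are from RefSeq (GRCr8), where all 9 members matched. The array's design file names an older build, so no array coordinates are used.

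The members and lists were chosen with earlier results of these data known. Named were all members, and of the other glycogen genes those called against WT or at least 2-fold apart between the SPORTS arrays, with a few others named after their values were seen (Gsk3a, Gsk3b, Ppp1r3b, Ppp1r3e, Pygl, Gys2). Of the fast markers, those at the ends of the range were named. Some genes of that list are in its counts and medians but are not reported here. The 5 nearest profiles were named for Pygm and Gys1. The lists covered muscle, fast and slow fibre, adipocyte, endothelial, smooth muscle, fibroblast and tendon, macrophage, heart and liver markers. Summed levels of endothelial markers were 14.1 in exercised and 13.8 in sedentary SPORTS muscle, against 11.5 and 12.0 in WT muscle. Of the 4 tested, 2 lay above and 2 below WT on the exercised array, from -2.09 for Cdh5 to 1.52 for Cldn5. Smooth muscle markers summed to 11.5 and 10.6, against 8.26 and 8.41. Heart markers, of which Myh6 and Tnnt2 were the 2 above background, summed to 107 and 237, against 324 and 324. Liver markers summed to 0.101 and 0.179, against 0.0986 and 0.0923. Alternatives were scaling by the median, quantile normalization, normexp (offset 50) on the deposited median spot signals and local backgrounds, the authors' table, 2 other filters, a floor, a variance trend, the mean of all probes, and leaving out each array.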

Additional observations from a re-analysis of the deposited data

How the results depend on the processing

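On the exercised SPORTS array, 7 or 8 members were called under every alternative that gave a test, beside 8 as reported. Over all genes tested, 53.3% were called there as reported. Members at least 2-fold apart between the SPORTS arrays numbered 7 under all. On the sedentary SPORTS array the count of 1 became 3 with normexp, with a variance trend, and when all 4 arrays had to pass the background flag, and 0 with no filter on dim genes or the mean of all probes. For SPORTS against WT the count ran from 0 to 8 when single arrays were left out, with 1 without the exercised and 8 without the sedentary SPORTS array, as that leaves a single SPORTS array. In that comparison 4 members changed sign. Without the exercised array the values were -0.40 for Pygm, -0.37 for Phkg1 and -0.22 for Ugp2, and without the sedentary SPORTS array 0.28 for Ppp1r3a, and with single arrays left out they ran from -0.40 to 2.19, from -0.37 to 2.27, from -0.22 to 1.03 and from -1.51 to 0.28. Gys1 on the exercised array changed sign to 0.20 with scaling by the median, by construction of the scaling. Over all genes, calls on the sedentary array were 836 as reported, 2110 with normexp, 2170 when all arrays had to pass the flag, 0 with no filter, 1611 with a floor and 2816 with a variance trend, and 2-fold genes between the SPORTS arrays were 2920, and 4887 with no filter. For SPORTS against WT they were 0, 1 with quantile normalization or normexp, and 836 and 7097 without the exercised and the sedentary SPORTS array. Except where the construction is named, the cause was not tested. Without a WT array the 3-group fit has no residual degrees of freedom and gives values with no test. No paired analysis was possible because the SPORTS groups have 1 array each and the numbers were given in accession order. The number of arrays limits the precision.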
